A study of Mus musculus with 14 samples.

Results

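CD200+CD105- cells sorted from the synovium of mice with antigen-induced arthritis were compared with cells of the same phenotype from non-immunized mice. The comparison used 9 of the 14 libraries of the series, chosen by their labels: libraries 1 to 4 (CD200_NI, non-immunized) and libraries 5 to 9 (CD200_AIA, arthritic). All mice were C57BL6 and 16 weeks old. The arthritic mice were immunized, in complete Freund's adjuvant, with mBSA (methylated bovine serum albumin) and later received mBSA into the joint. The non-immunized mice received phosphate buffered saline (PBS) each time. Knees were collected on day 10 from that last injection, and collagenase released the synovial cells. The sort kept live cells without TER119, CD31, CD45 or CD105 and with CD51 and CD200, and 200 to 500 cells went into each sample. RNA was reverse transcribed and amplified with the SMART-Seq v4 low-input kit, with ERCC spike-in RNA added to the lysate. The labels do not say whether each sample is a separate mouse or a pool, so the spread between samples may be partly technical and the p-values measure only that spread.

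The synovium is the tissue that lines the joint. Its lining layer holds fibroblasts that secrete lubricin, and its deeper sublayer holds fibroblasts and vessels. CD51 (integrin alpha V) together with CD200, without CD105 (endoglin), is a surface phenotype used to enrich skeletal stem and progenitor cells, which can give rise to osteoblasts, chondrocytes and stroma. Osteoblasts build bone by secreting type I collagen and mineral-binding proteins, under control of the transcription factors Runx2 and Sp7. In antigen-induced arthritis, immune cells that recognise the albumin drive inflammation of the injected joint.

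Spike-ins took 85.4% to 92.0% of all counts in libraries 2, 5 and 6, against 43.5% to 55.5% in the other 6. These 3 libraries detected 9772 to 12095 genes and the others 15018 to 18208. Each main result is therefore also given without them. Counts on genes ranged from 2919666 to 18203642 per library, so that 3 counts in a library equal 0.174 to 0.910 CPM. All levels here are CPM, counts on genes scaled to a common library size with TMM factors. A two-sided exact permutation test called no difference between the groups in any of 7 library measures. With 4 libraries against 5, a difference may have gone uncalled. The smallest p was 0.103 (0.611 after Benjamini-Hochberg adjustment), for the share of ribosomal protein genes, 5.08% ± 1.62 (SD, n = 4) in non-immunized and 7.21% ± 1.84 (SD, n = 5) in arthritic libraries. The smallest p that 126 permutations allow is 0.00794. Cd200 itself stood at 796, 678, 459 and 428 CPM in non-immunized libraries 1 to 4 and at 402, 541, 497, 318 and 334 CPM in arthritic libraries 5 to 9, and the groups overlapped. Itgav, which codes for CD51, ranged from 1.82 to 139.9 CPM. Eng, which codes for CD105, was at most 12.2 CPM in every library. Ptprc, which codes for CD45, had counts only in library 4 (19.6 CPM) and library 7 (0.0752 CPM). Markers of blood cells were nonetheless present in some non-immunized libraries. The neutrophil protein gene S100a8 reached 2299 and 689.7 CPM in libraries 3 and 4, and the antibody gene Igkc reached 5124 CPM in library 3. Summed neutrophil markers ranged from 4.84 to 7019 CPM in non-immunized and from 0 to 216 CPM in arthritic libraries, and 0 of 6 tested members had a higher mean in arthritis. Summed B and plasma cell markers ranged from 31.5 to 7091 CPM and from 0 to 29.2 CPM, without overlap. Macrophage markers overlapped (0 to 952 and 0 to 376 CPM), as did endothelial markers (0.186 to 54.2 and 0.303 to 141 CPM). Summed erythroid markers overlapped only through library 9, at 10360 CPM. They ranged from 1169 to 10176 CPM in non-immunized libraries and from 4.23 to 276 CPM in arthritic libraries 5 to 8. Of 13 tested erythroid genes 2 had a log2 change above 0 and 10 below. Summed T and NK cell markers ranged from 9.26 to 56.8 CPM in non-immunized and from 0 to 7.07 CPM in arthritic libraries, without overlap. They overlapped without Nkg7, a granule protein gene that made up 69.9% of the sum, and 7 of the 12 genes, the defining T cell gene Cd3e among them, had no count in the 9 libraries.

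No gene of 15015 tested was called by edgeR's quasi-likelihood test at a Benjamini-Hochberg adjusted p of 0.05 (0%). The smallest adjusted p was 0.636, and 915 genes (6.09%) had an unadjusted p under 0.05. The log2 change, arthritic minus non-immunized, was above 0 for 6745 genes (44.9%), with a median of -0.10. Every arthritic library lay above every non-immunized library in 167 genes (1.11%), and below in 177 (1.18%). This split moved with the scaling. RLE size factors gave 86 higher and 291 lower, and library sizes from the spike-ins gave 4 and 19. The median of all genes was -0.27 under RLE and 0.01 with spike-in sizes. Without libraries 2, 5 and 6, edgeR again called no gene of 15843 (0%), and 1115 had an unadjusted p under 0.05. The smallest edgeR adjusted p was then 0.103. There 7655 genes (48.3%) were above 0, and 3 libraries against 3 did not overlap in 1223 genes higher (7.72%) and 988 lower (6.24%). DESeq2 called 83 genes higher (0.562% of 14776) and 144 lower (0.975%). Of these 227 genes, 181 had a count in at most 1 library of 1 group, and 27 had groups that did not overlap. Limma voom with sample weights called 4 genes. Since edgeR called none, every difference described below is given as levels and a direction. Each named gene had an edgeR adjusted p of at least 0.636 with all libraries.

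**Figure D1:**
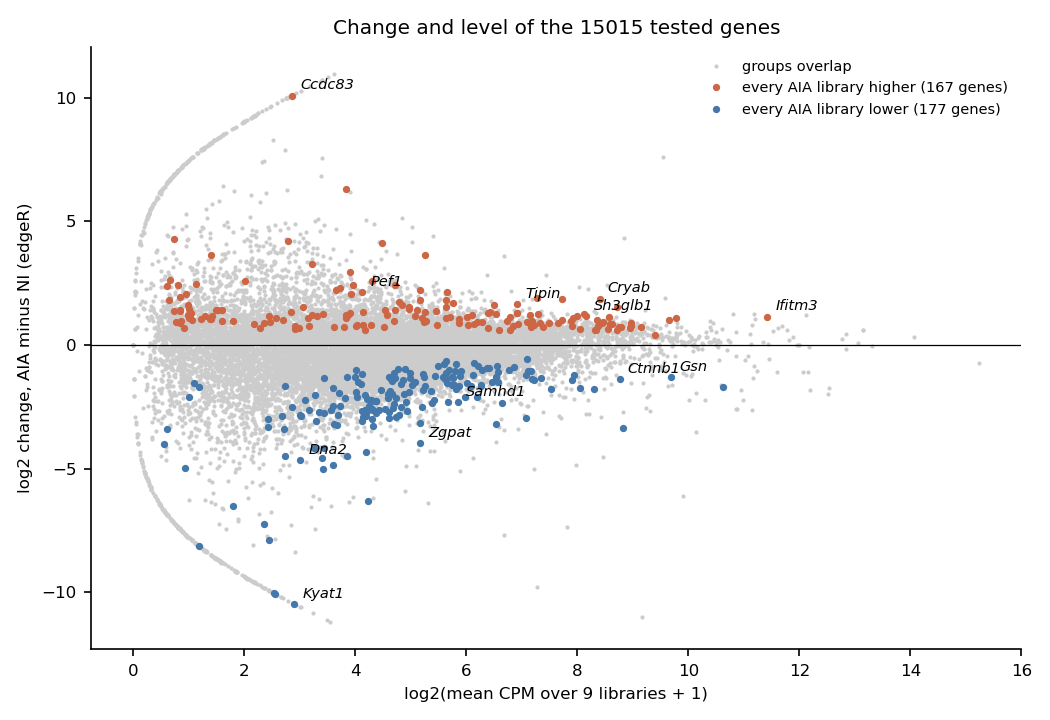
Log2 change (arthritic minus non-immunized, edgeR) against log2 of the mean CPM over the 9 libraries plus 1, 1 point per tested gene. Orange points are the 167 genes with every arthritic library higher and blue points the 177 with every arthritic library lower; the curved edges hold genes without a count in 1 of the groups.

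The 12 genes with the smallest p among those higher without overlap, and a few others called by DESeq2 or without a count in 1 group, are described first. The 12 were chosen for the lack of overlap, so that lack is no support, and each had an edgeR adjusted p of 0.636. Cryab (chr9:50751325-50756636 on GRCm38), the small heat shock protein alpha B-crystallin, stood at 117, 70.5, 179.6 and 175 CPM in non-immunized and at 439, 395, 660.4, 318 and 677 CPM in arthritic libraries. The lowest arthritic library was library 8 and the highest non-immunized one was library 3. The log2 change was 1.87 ± 0.38 (SE), and 1.81 without libraries 2, 5 and 6; DESeq2 gave an adjusted p of 8.3e-05. Cryab overlaps Hspb2 on the opposite strand, and reads of the pair may not have been told apart.

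Sh3glb1 (chr3:144683678-144720335), endophilin B1, a membrane-bending protein of mitochondria and autophagosomes, stood at 159, 138, 204 and 163 CPM against 242, 319.9, 418, 346 and 555 CPM. Its log2 change was 1.18 ± 0.26 (SE). Tomm5, a subunit of the translocase that imports proteins into mitochondria, stood at 41.1 to 92.6 CPM (65.2 ± 22.1, SD, n = 4) and at 131 to 198 CPM (162 ± 27.2, SD, n = 5). Vdac2, a channel of the outer mitochondrial membrane, stood at 80.5 to 134 CPM and at 142 to 239 CPM. Ndufs3, a core subunit of respiratory complex I, stood at 56.0 to 111 CPM and at 123 to 325 CPM, with library 6 the highest. Each of these 3 genes lay higher in all 5 arthritic libraries, as their choice for a lack of overlap required.

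Tipin (chr9:64281581-64305424), which steadies the replication fork, stood at 73.7, 42.0, 32.7 and 66.6 CPM against 194, 205, 145, 218 and 93.3 CPM. Hikeshi, which carries heat shock protein Hsp70 into the nucleus, had a narrow gap, with 50.2 CPM the highest non-immunized and 54.6 CPM the lowest arthritic level. Pef1, a calcium-binding protein, stood at 2.26 to 11.7 CPM and at 19.1 to 34.5 CPM. Ppp1r14b, an inhibitor of protein phosphatase 1, stood at 83.6 to 263 CPM and at 308 to 887 CPM. Alkbh7, a mitochondrial relative of the AlkB dioxygenases, and Naa50, an amino-terminal acetyltransferase, completed this group, with log2 changes of 1.55 ± 0.43 and 1.26 ± 0.35 (SE). Ccdc83 had no count in the 4 non-immunized libraries and stood at 2.21, 34.9, 12.9, 1.90 and 4.21 CPM in the arthritic ones. Against a floor of 3 counts over the non-immunized group, its pooled arthritic level of 7.51 CPM was at least 140-fold higher. That bound covers counting error only, not the spread between libraries. Tnnt1, slow skeletal muscle troponin T, was at 0 in libraries 1 to 3 and 1.10 CPM in library 4, and at 14.5 to 46.7 CPM in the arthritic libraries. Ecsit, a factor of complex I assembly and of innate immune signalling, stood at 0 to 4.79 CPM and at 9.66 to 79.7 CPM. DESeq2 gave adjusted p values of 0.00047 for Ccdc83, 0.0095 for Tnnt1 and 0.017 for Ecsit. Ccdc83 and Tnnt1 were also called by limma voom.

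Among the 12 genes lower without overlap, Kyat1 (chr2:30185124-30205847), a kynurenine aminotransferase, had no count in any arthritic library. Its levels in non-immunized libraries 1 to 4 were 5.96, 33.1, 2.90 and 16.2 CPM. The pooled non-immunized level, 10.9 CPM, was at least 189-fold higher than in arthritis, taking 3 counts over the arthritic group as the floor. Kyat1 was called by DESeq2 (adjusted p = 8.8e-11) and by limma voom. Tiam1, an activator of the GTPase Rac, was also without a count in arthritis and at 0.630 to 5.21 CPM in non-immunized libraries. Their pooled level of 2.74 CPM was at least 47.7-fold higher by the same floor. The bounds for Kyat1 and Tiam1 cover counting error only, not the spread between libraries. Tiam1 in library 3, at 0.630 CPM, was under the level of 3 counts in library 6, 0.910 CPM.

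Samhd1 (chr2:157097533-157135265), which breaks down deoxynucleotides and restricts viruses, stood at 163, 56.2, 146 and 41.4 CPM in non-immunized libraries and at 16.7, 6.97, 24.4, 34.9 and 19.4 CPM in arthritic ones. All 5 arthritic levels lay under the lowest non-immunized level, that of library 4. Its log2 change was -2.31 ± 0.52 (SE), -2.16 without libraries 2, 5 and 6, and DESeq2 gave an adjusted p of 0.00026. Dna2, a nuclease and helicase of DNA replication, stood at 7.52 to 23.4 CPM and at 0 to 2.01 CPM. Prcp, a lysosomal carboxypeptidase, stood at 19.4 to 76.6 CPM and at 0.910 to 16.2 CPM. Ctsa, the lysosomal cathepsin A, stood at 143 to 285 CPM and at 29.0 to 115 CPM. Ptdss2, a phosphatidylserine synthase, Ergic3, of transport between endoplasmic reticulum and Golgi, and Nptn, the adhesion protein neuroplastin, had log2 changes of -1.43 ± 0.38, -1.04 ± 0.30 and -1.21 ± 0.37 (SE). Gsn, the actin-severing protein gelsolin, stood at 623, 2627, 666 and 989.5 CPM and at 427 to 556 CPM; library 2 was the highest, and the log2 change was -1.30 with all libraries and -0.61 without libraries 2, 5 and 6. Zgpat, a zinc finger repressor, was also highest in library 2, at 219 CPM, with log2 changes of -3.96 and -1.64. Rmdn3, a tether between endoplasmic reticulum and mitochondria, and Uhrf1bp1 had log2 changes of -2.90 ± 0.92 and -4.84 ± 1.55 (SE).

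**Figure D2:**
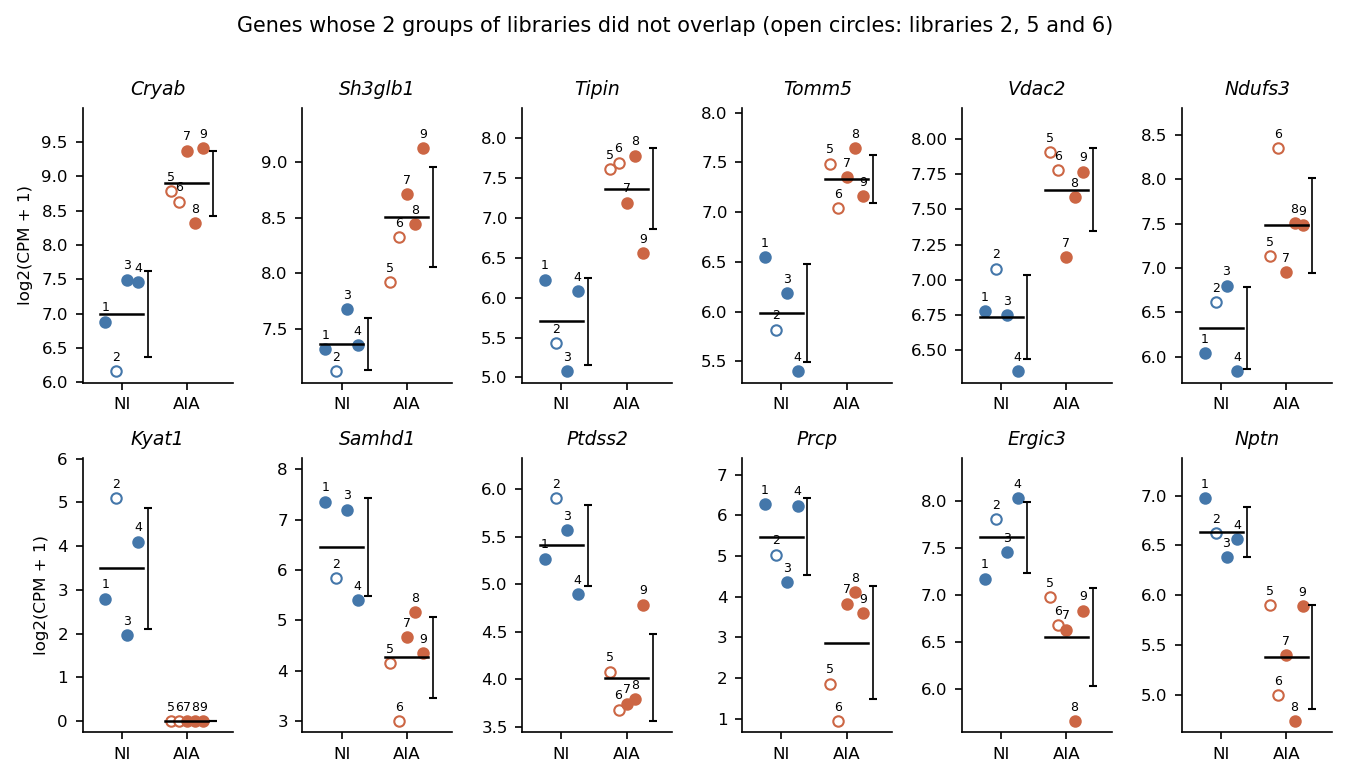
Level of 12 of these genes in each library as log2(CPM + 1), non-immunized (NI, blue) and arthritic (AIA, orange), with library numbers; horizontal bars are means and vertical bars 1 SD, and open circles are libraries 2, 5 and 6. In each panel the 4 NI libraries and the 5 AIA libraries do not overlap, as the choice of genes requires.

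Genes of the osteoblast lineage were mostly lower in arthritis. Of 31 tested members, 4 had a log2 change above 0 and 27 below, with a median of -1.51, beside 44.9% above 0 and -0.10 over all genes. An unadjusted p under 0.05 was found for 4 of the 31, all lower, beside 6.09% of all genes. Without libraries 2, 5 and 6, again 4 of 31 were above 0, with a median of -0.94. Their summed level was 142435, 86992, 73103 and 54162 CPM in non-immunized libraries and 34062, 42359.6, 31974, 53406 and 50405 CPM in arthritic ones, without overlap. The gap between library 4 and library 8 was narrow. Of all 43 lists, 7 had a lower and 2 a higher summed level in arthritis without overlap, and 34 overlapped. Spp1 alone made up 60.5% of the sum. Without Spp1 the groups did not overlap either, with 30477 to 51025 CPM against 1795 to 20377 CPM. In bulk libraries, fewer cells of a type and less RNA per cell cannot be told apart.

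The 9 bone matrix genes were all below 0, with a median of -1.72, and -1.37 without libraries 2, 5 and 6. Bglap, which codes for the mineral-binding osteocalcin, stood at 5052, 180.5, 5909 and 2643 CPM against 26.2, 902, 612, 644 and 680.1 CPM. Library 2 was low in the non-immunized group and library 5 far under the other arthritic libraries, and without these and library 6 the groups did not overlap. The log2 change was -2.59 ± 1.23 (SE; edgeR adjusted p = 0.842), and -2.82 without them. Bglap2, a near-identical copy next to it whose reads the counting may have split, had log2 changes of -2.20 and -2.19. Col1a2, the alpha 2 chain of type I collagen, stood at 10791, 3094, 14429.5 and 10377 CPM against 297, 1890.1, 2403, 4352 and 5705 CPM. Only library 2 fell among the arthritic levels (log2 change -1.72 ± 0.78, SE; edgeR adjusted p = 0.781). Col1a1, the alpha 1 chain, had -1.80 ± 0.97 (SE). Ibsp, bone sialoprotein, stood at 4211 to 7252 CPM in non-immunized libraries, and at 49.7 CPM in library 5 and 2992 to 4356 CPM in the other arthritic libraries. Spp1, osteopontin, a matrix protein also made by immune cells, overlapped, with 22078 to 99709 CPM and 17438 to 36317 CPM. Sparc, osteonectin, overlapped too (log2 change -1.09 ± 0.75, SE).

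Among mineralization and osteocyte genes, 1 of 9 was above 0 (median -2.01), and 0 of 9 without libraries 2, 5 and 6 (median -1.33). Dmp1, a phosphoprotein of osteocytes, stood at 1445, 7398, 112 and 244 CPM in non-immunized libraries and at 0, 264, 231, 216 and 279 CPM in arthritic ones. Libraries 1 and 2 were high and libraries 3 and 4 lay within the arthritic range. The log2 change was -3.54 ± 1.38 (SE; edgeR adjusted p = 0.674), and -1.33 without libraries 2, 5 and 6. Mepe, an osteocyte protein of the same family, reached 8316 CPM in library 2 and 0 to 104 CPM in the other 8 libraries, and its log2 change went from -6.09 to -0.06 without libraries 2, 5 and 6. Ank, a transporter of the mineral inhibitor pyrophosphate, Alpl, the alkaline phosphatase that degrades it, and Phex, a peptidase of phosphate control, had log2 changes of -1.51, -1.75 and -2.01. Alpl did not overlap without libraries 2, 5 and 6, with 388 to 605 CPM against 162 to 181 CPM. Of the transcription factors, 1 of 9 was above 0, with a median of -0.91. Sp7 (osterix) stood at 82.4 to 140.4 CPM against 0 to 65.5 CPM without overlap. Runx2 overlapped, with 30.3 to 155 CPM and 0 to 123 CPM.

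Promoters of Bglap and Dmp1 are shown because these genes had the lowest log2 changes among the matrix and osteocyte genes named above, other than Mepe, and Runx2 is known to bind the letters ACCACA. The 200 bases before the RefSeq start (GRCm38.p6) were searched for ACCACA and its reverse complement TGTGGT, which capitals mark. Bglap lies on the minus strand (chr3:88384467-88384666), and Dmp1 on the plus strand (chr5:104202417-104202616). For Dmp1, 1 of 2 listed starts is shown, picked by its number of matches.
Bglap: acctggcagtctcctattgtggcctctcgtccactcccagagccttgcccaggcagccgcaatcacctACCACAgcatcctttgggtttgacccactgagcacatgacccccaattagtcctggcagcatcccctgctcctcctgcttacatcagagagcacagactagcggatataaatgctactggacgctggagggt
Dmp1: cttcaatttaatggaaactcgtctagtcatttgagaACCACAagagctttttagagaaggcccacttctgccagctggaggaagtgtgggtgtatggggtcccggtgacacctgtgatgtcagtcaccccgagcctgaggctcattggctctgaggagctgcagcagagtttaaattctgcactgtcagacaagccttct
Each window held 1 match, and 11.2% of 32851 promoter windows of this length held at least 1. The Dmp1 window was picked by its matches and those windows were not, so its match cannot be set against that share. A match describes the letters only.

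Cartilage genes were mostly lower in arthritis, by an amount that depended on library 3. Of 20 tested members 2 were above 0, with a median of -2.42, and 1 of 20 without libraries 2, 5 and 6, with a median of -2.32. The median was -1.07 without library 3 and -3.48 without library 7, the extremes when each library was left out. Chad, chondroadherin, a matrix protein of cartilage, stood at 922, 770.4, 1481 and 468 CPM against 0, 159.8, 144, 20.3 and 124 CPM. The groups did not overlap (log2 change -3.34 ± 2.02, SE; edgeR adjusted p = 1). Acan, the cartilage proteoglycan aggrecan, stood at 257, 27.0, 680.4 and 14.4 CPM against 0, 0, 61.8, 27.5 and 25.1 CPM and overlapped. Summed cartilage genes reached 8704 CPM in library 1 and 25229 CPM in library 3 and 6518 CPM in library 7, and lay between 581 and 2692 CPM in the other 6 libraries.

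**Figure D3:**
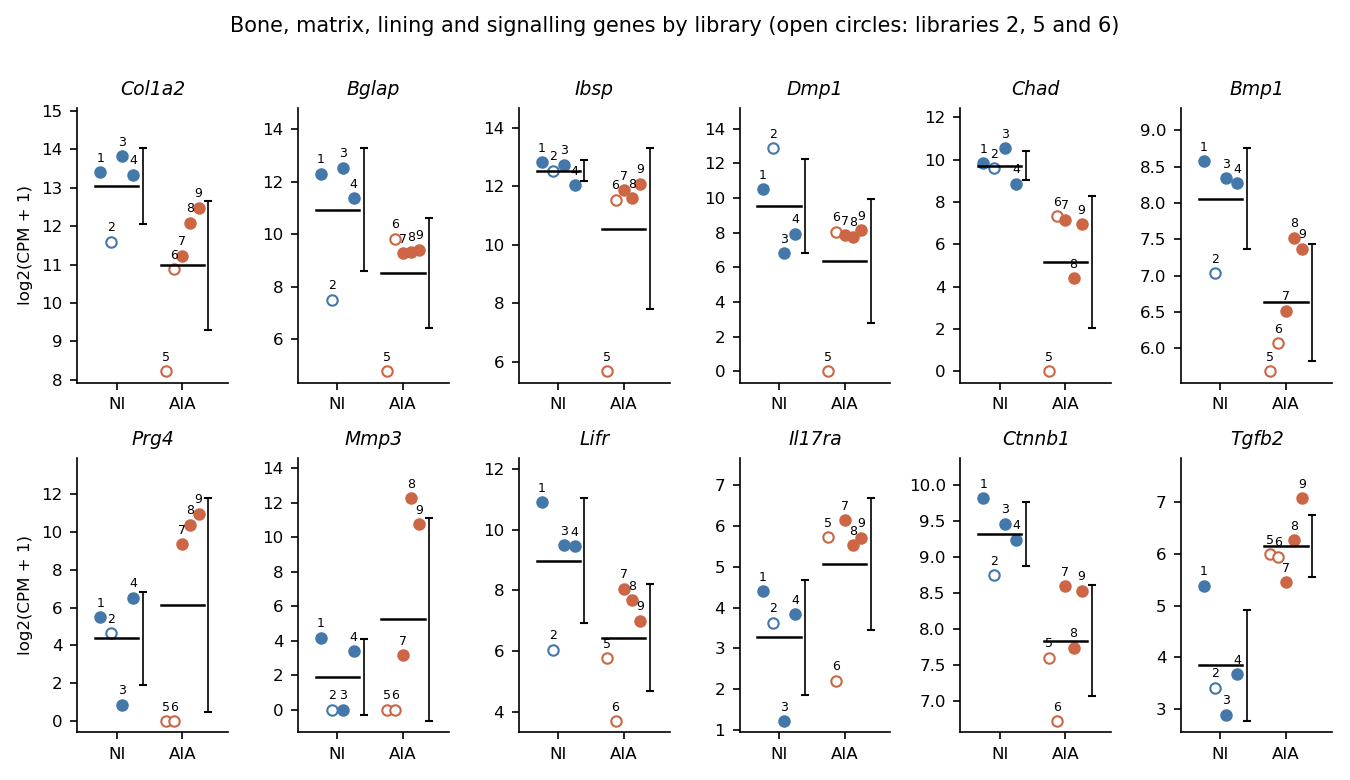
Level of 12 bone, cartilage, matrix, lining and signalling genes in each library as log2(CPM + 1), non-immunized (NI, blue) and arthritic (AIA, orange); horizontal bars are means, vertical bars 1 SD, numbers are libraries and open circles are libraries 2, 5 and 6. Library 5 is the lowest AIA library for Bglap, Ibsp, Dmp1 and Chad, and Prg4 is at 0 in libraries 5 and 6.

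Genes that process collagen and link cells to matrix mostly had log2 changes below 0. Of 24 collagen-processing and crosslinking genes, 3 were above 0 (median -0.80), and 4 of 24 without libraries 2, 5 and 6 (median -0.50). Bmp1, the protease that trims procollagen, stood at 380.0, 129.9, 324 and 307 CPM against 50.3, 66.1, 90.5, 182 and 164 CPM (log2 change -1.36 ± 0.49, SE; edgeR adjusted p = 0.636). Library 2 alone fell into the arthritic range, as it did for Adamts2, another procollagen protease, at 81.1 CPM. P4ha1, a prolyl hydroxylase, did not overlap, with 105 to 156 CPM against 35.2 to 102 CPM. Plod2 and Crtap, which modify collagen lysines and prolines, had log2 changes of -1.33 and -1.22. Of 26 matricellular and glycoprotein genes, 4 were above 0 (median -0.83), and 6 of 26 without libraries 2, 5 and 6 (median -0.65). Their summed level did not overlap, with 6122 to 10964 CPM against 2404 to 5961 CPM. An unadjusted p under 0.05 (edgeR) was found for 2 of the 24 and 1 of the 26 genes, beside 6.09% of all genes. Among other lists it was found for 0 of 20 cartilage, 0 of 25 stromal and 2 of 15 sublining genes. It was also found for 1 of 30 protease and inhibitor, 1 of 30 Wnt and 0 of 36 BMP and TGF-beta genes. For proteasome and cell cycle genes it was 6 of 26 and 6 of 46, all higher. Ccn2, connective tissue growth factor, stood at 1407, 1801, 458 and 1123 CPM against 29.4, 0, 233, 516 and 151 CPM. Library 3 was the only non-immunized library under the highest arthritic level. Ccn1, a close relative, reached 5172 CPM in library 2 and overlapped, and Tnc, tenascin C, stood at 375 to 4197 CPM against 9.10 to 936 CPM.

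Stromal, lining and sublining fibroblast markers had medians below 0 with all 9 libraries. Of 25 stromal and skeletal progenitor genes 11 were above 0, with a median of -0.69, and 6 of 25 without libraries 2, 5 and 6, with a median of -0.94. Cxcl12, the chemokine of the marrow niche, stood at 2234, 78.7, 2814 and 1086 CPM against 432, 548, 753, 982 and 701 CPM. Library 2 alone was under the arthritic levels. Ebf1, a transcription factor of niche stroma, and Pdgfra, a receptor of mesenchymal cells, were at 1.86 and 1.12 CPM in library 2 and at 94.5 and 72.4 CPM in library 3. Of 15 sublining and universal fibroblast genes 2 were above 0 (median -0.99), and 1 of 15 without libraries 2, 5 and 6 (median -0.85). Their summed level did not overlap, with 4354 to 6265 CPM against 985 to 4020.4 CPM.

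Lining genes did not share a direction. Of 14 tested, 5 were above 0 with a median of -1.03, and 8 of 14 without libraries 2, 5 and 6, with a median of 0.16. Prg4, which codes for lubricin, the defining product of lining fibroblasts, stood at 43.5, 24.0, 0.819 and 90.4 CPM in non-immunized libraries. In arthritis it was at 0 in libraries 5 and 6 and at 652, 1320.2 and 1975 CPM in libraries 7 to 9. A count of 0 allows up to 0.604 CPM in library 5 and 0.910 CPM in library 6 (3 counts, counting error only). Its log2 change was 4.31 ± 2.17 (SE; edgeR adjusted p = 0.9), and 4.86 without libraries 2, 5 and 6. Mmp3, stromelysin, a matrix protease of inflamed synovium, was at 4897 and 1746 CPM in libraries 8 and 9, at 7.97 CPM in library 7, and at 0 to 17.0 CPM in the other 6 libraries. Arthritic libraries 5 to 7 thus lay within the non-immunized range.

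Of 30 matrix proteases and inhibitors, 4 were above 0 (median -1.01), and 7 of 31 without libraries 2, 5 and 6 (median -0.56). Mmp13, the collagenase of osteoblasts and hypertrophic chondrocytes, stood at 2031 to 4408 CPM against 78.8 to 3912 CPM and overlapped. Of the inhibitors, 1 of 9 was above 0. Serpine2, which blocks serine proteases, stood at 4884, 1377, 2349.7 and 1694 CPM against 126, 899, 678, 1148 and 1093 CPM and did not overlap (log2 change -1.71 ± 1.04, SE; edgeR adjusted p = 1). Timp3, a metalloproteinase inhibitor, and Cst3, the cathepsin inhibitor cystatin C, did not overlap once libraries 2, 5 and 6 were left out, with log2 changes there of -1.94 and -1.18. Ctsb, cathepsin B, stood at 2005 CPM in library 2 and at 390.3 to 759 CPM in the other 8.

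Signalling genes were compared by pathway. Wnt ligands bind receptors that stabilise beta-catenin, and secreted antagonists such as Wif1 trap the ligands. Of 30 Wnt genes 7 were above 0 (median -0.69), and 7 of 34 without libraries 2, 5 and 6 (median -0.77). Their summed level was 3710.0, 3355, 2448 and 1993 CPM against 1073, 737, 1554, 1539 and 1321 CPM and did not overlap. Ctnnb1 (chr9:120929216-120960507), which codes for beta-catenin, stood at 898, 429, 703 and 602 CPM against 193, 104, 384, 212 and 368 CPM. Every arthritic library was lower (log2 change -1.38 ± 0.47, SE; edgeR adjusted p = 0.636), and without libraries 2, 5 and 6 the change was -1.20. Wif1 stood at 857, 439, 189 and 233 CPM against 0, 199.8, 149, 44.9 and 77.0 CPM, with an overlap of libraries 3 and 6.

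Of 36 BMP and TGF-beta genes 12 were above 0 (median -0.54), and 8 of 36 without libraries 2, 5 and 6 (median -0.54). Their summed level did not overlap (5593 to 7140.2 CPM against 4075 to 5146 CPM), but overlapped once the BMP target Id3 was left out of the sum. Of the antagonists and latency proteins, 0 of 10 were above 0 (median -1.02), and 1 of 10 without those libraries. Ltbp1, which holds latent TGF-beta in the matrix, stood at 303, 455, 197 and 223 CPM against 199, 118, 61.8, 32.9 and 44.0 CPM, with a single crossing of libraries 3 and 5. The ligand Tgfb2 (chr1:186622792-186705989) went the other way without overlap, with 40.8, 9.67, 6.43 and 11.8 CPM against 62.6, 60.6, 42.7, 76.1 and 134 CPM (log2 change 2.13 ± 1.21, SE; edgeR adjusted p = 0.996). Inhba, the activin A subunit, was at 27.7, 219 and 29.3 CPM in libraries 7 to 9, at 0 in libraries 5 and 6, and at most 4.73 CPM in non-immunized libraries. Of 33 hedgehog, IGF, FGF and PDGF genes 9 were above 0 (median -0.25), and 11 without libraries 2, 5 and 6 (median -0.42).

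Inflammatory genes were compared list by list. Of 21 cytokine and receptor genes 7 were above 0 (median -0.19), and 11 of 24 without libraries 2, 5 and 6 (median -0.23). Il1b and Tnf had no count in the 9 libraries. Il17ra, the receptor chain for interleukin-17, stood at 20.1, 11.3, 1.32 and 13.3 CPM against 51.9, 3.64, 69.6, 45.3 and 51.4 CPM. Only library 6 fell among the non-immunized levels (log2 change 1.95 ± 0.90, SE; edgeR adjusted p = 0.813). Lifr, the receptor for leukaemia inhibitory factor, stood at 1917, 65.1, 719.7 and 706 CPM against 53.2, 11.8, 265, 203 and 127 CPM. Library 2 was the sole overlap, and the log2 change was -2.69 ± 1.05 (SE; edgeR adjusted p = 0.674). Among 7 osteoclast regulators 1 was above 0 (median -0.84), but 4 of 9 without libraries 2, 5 and 6 (median -0.53). Csf1, the growth factor of macrophages and osteoclast precursors, stood at 39.1 to 346 CPM against 40.7 to 95.2 CPM, with library 2 the lowest.

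Of 14 chemokines 4 were above 0 (median -0.96), and 3 of 17 without libraries 2, 5 and 6 (median -1.67). Cxcl14, a chemokine of fibroblasts, did not overlap, with 199 to 547 CPM against 71.1 to 184 CPM. Of 10 complement genes 3 were above 0 (median -0.77), and 2 of 10 without those libraries (median -0.59). C1ra, a protease of the classical pathway, had a log2 change of -1.35 ± 0.75 (SE).

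Interferon response genes split. Of 33 tested 19 were above 0 (median 0.21), but 11 of 33 without libraries 2, 5 and 6 (median -0.16). Ifitm3, a membrane protein that blocks virus entry, did not overlap, with 1871, 908, 1961 and 1784 CPM against 3154, 8338, 2384, 2232 and 2044 CPM. Library 6 was the highest, and the log2 change of 1.15 became 0.24 without libraries 2, 5 and 6. Ifit2, an RNA-binding antiviral protein, did not overlap in the other direction, with 18.4, 14.9, 30.6 and 25.8 CPM against 1.21, 2.73, 3.23, 2.45 and 10.7 CPM (log2 change -2.46 ± 0.87, SE; DESeq2 adjusted p = 0.015). Usp18, which damps the interferon receptor, was at 42.9 and 47.8 CPM in libraries 1 and 4 and at most 3.38 CPM elsewhere. Of 15 antigen presentation genes 3 were above 0 (median -0.59), and 3 of 16 without libraries 2, 5 and 6 (median -0.57). The 5 tested class II genes were all lower (median -3.92), and Cd74, the class II invariant chain, was at 448 and 453 CPM in libraries 3 and 4 and at most 3.64 CPM elsewhere. Summed macrophage markers were at 302 and 952 CPM in libraries 3 and 4, with 1 of 8 tested members above 0, but also at 376 CPM in library 6, where Cd74 was at 0. Summed B and plasma cell markers were at 7091 and 31.5 CPM in libraries 3 and 4. The part of these cells in the class II difference was not tested. Of 9 tested immune suppression genes 4 were above 0. Their summed level did not overlap, with 1625 to 3037 CPM against 3509 to 5086 CPM. It overlapped without Lgals1, which made up 68.4% of the sum. Lgals1, galectin-1, a lectin that dampens T cells, stood at 1004, 587, 1501 and 2162 CPM against 1601, 3712, 3436, 2618 and 4222 CPM, with libraries 4 and 5 crossing (log2 change 1.25 ± 0.50, SE; edgeR adjusted p = 0.675).

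**Figure D4:**
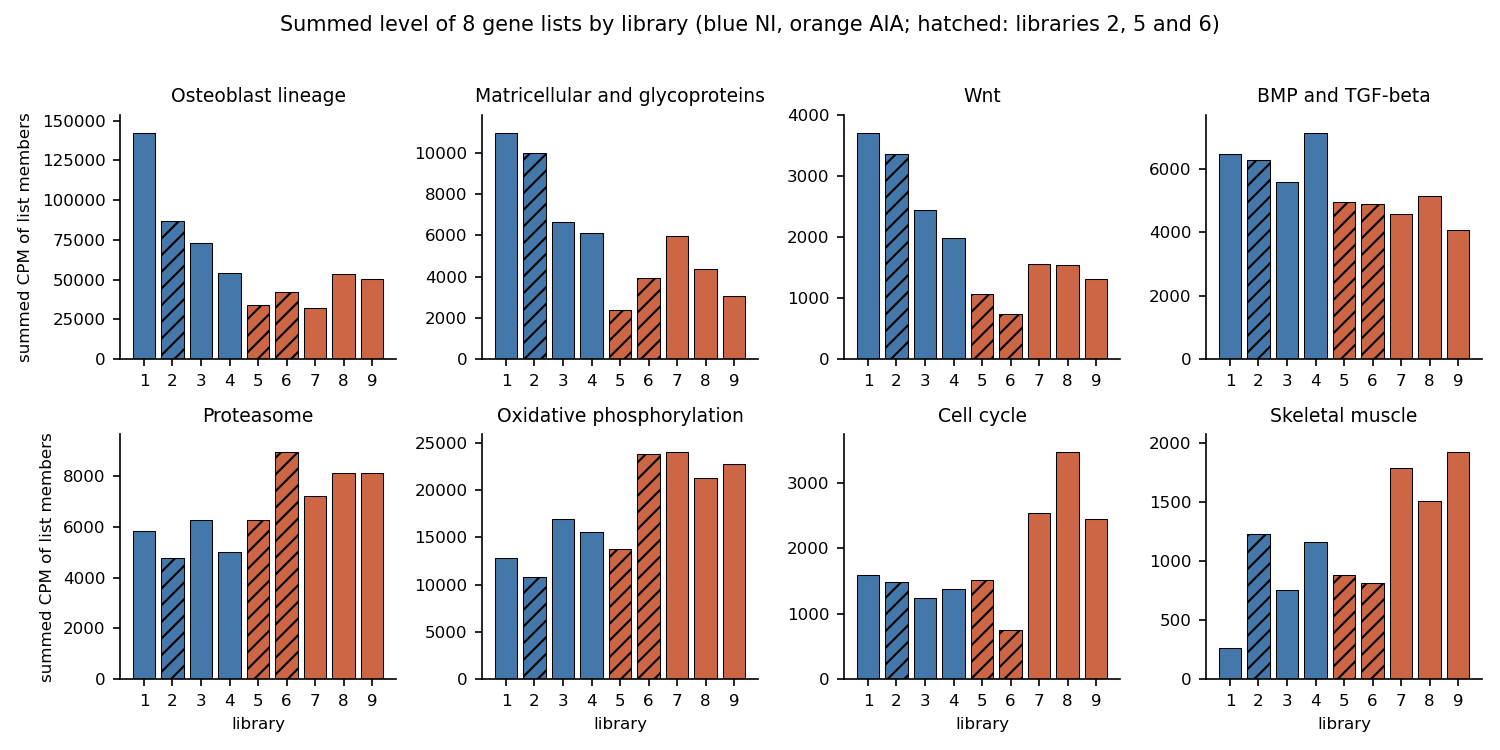
Summed CPM of the members of 8 gene lists in each library; blue bars are non-immunized libraries 1 to 4, orange bars arthritic libraries 5 to 9, and hatched bars libraries 2, 5 and 6. The sums do not overlap for the osteoblast lineage, matricellular, Wnt, BMP and TGF-beta, and proteasome lists, and libraries 7 to 9 are the highest for the cell cycle and skeletal muscle lists.

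Genes of oxidative phosphorylation and of the proteasome were mostly higher in arthritis, and those of glycolysis and hypoxia were not with all 9 libraries. Of 48 nuclear genes of oxidative phosphorylation 42 were above 0 (median 0.72), and 44 of 48 without libraries 2, 5 and 6 (median 0.71). An unadjusted p under 0.05 was found for 19 of the 48, all higher, beside 6.09% of all genes. In 5 of the 48 every arthritic library was higher, beside 1.11% of all genes. Ndufa5, of complex I, stood at 141, 69.6, 165 and 155 CPM against 251, 247, 373, 221 and 262 CPM (log2 change 1.03 ± 0.31, SE). Atp5g1, a subunit of the ATP synthase rotor, stood at 281, 272, 416 and 372 CPM against 499, 596, 642, 752 and 640.0 CPM (0.90 ± 0.28, SE). Neither overlapped. Sdhd, of complex II, and Atp5o, of ATP synthase, had log2 changes of 0.92 and 1.01 and overlapped through library 6 and library 5. The summed level was 12762, 10791, 16969.6 and 15575 CPM against 13704, 23806, 23961, 21255 and 22794 CPM, so that library 5 lay within the non-immunized range. Of 26 glycolysis and hypoxia genes 12 were above 0 (median -0.07), and 16 without libraries 2, 5 and 6 (median 0.57). Pgk1, a glycolytic enzyme and the member with the smallest p, stood at 72.8 to 104 CPM against 86.1 to 239 CPM, and did not overlap without libraries 2, 5 and 6 (log2 change there 1.33). The share of mitochondrial transcripts was 5.37% ± 2.68 (SD, n = 4) and 6.52% ± 1.87 (SD, n = 5).

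Of 26 proteasome genes 23 were above 0 (median 0.49), and 23 without libraries 2, 5 and 6 (median 0.48). Their summed level did not overlap, at 5841, 4801, 6271 and 5021 CPM against 6295, 8949, 7217, 8123 and 8128 CPM, and library 5 lay just above library 3. Psmb2 and Psmb3, subunits of the catalytic core, did not overlap, with 213 to 357 CPM against 409 to 689 CPM and 152 to 352 CPM against 377 to 576 CPM. Psmd14, the deubiquitinase of the lid, and Psma3, of the outer ring, overlapped, with log2 changes of 0.95 and 0.72.

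Cell cycle genes were mostly above 0, but their summed level was high in 3 of the 5 arthritic libraries. Of 46 tested 37 were above 0 (median 0.92), and 41 without libraries 2, 5 and 6 (median 1.37). Of 21 genes of G2 and mitosis 19 were above 0 (median 1.43). Summed levels were 1592, 1485, 1244 and 1376 CPM in non-immunized libraries, 1517 and 751 CPM in arthritic libraries 5 and 6, and 2545, 3469 and 2449 CPM in libraries 7 to 9. Stmn1, a microtubule regulator of dividing cells, stood at 84.2, 25.9, 63.5 and 40.4 CPM against 68.9, 41.5, 194, 469 and 173 CPM (log2 change 1.82 ± 0.63, SE; edgeR adjusted p = 0.636). Pcna, the replication clamp, stood at 117, 47.1, 125 and 100.5 CPM against 293, 113, 158, 265 and 195 CPM, and library 6 alone fell among the non-immunized levels. Tyms, thymidylate synthase, stood at 13.0 to 42.9 CPM against 38.6 to 72.0 CPM.

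**Figure D5:**
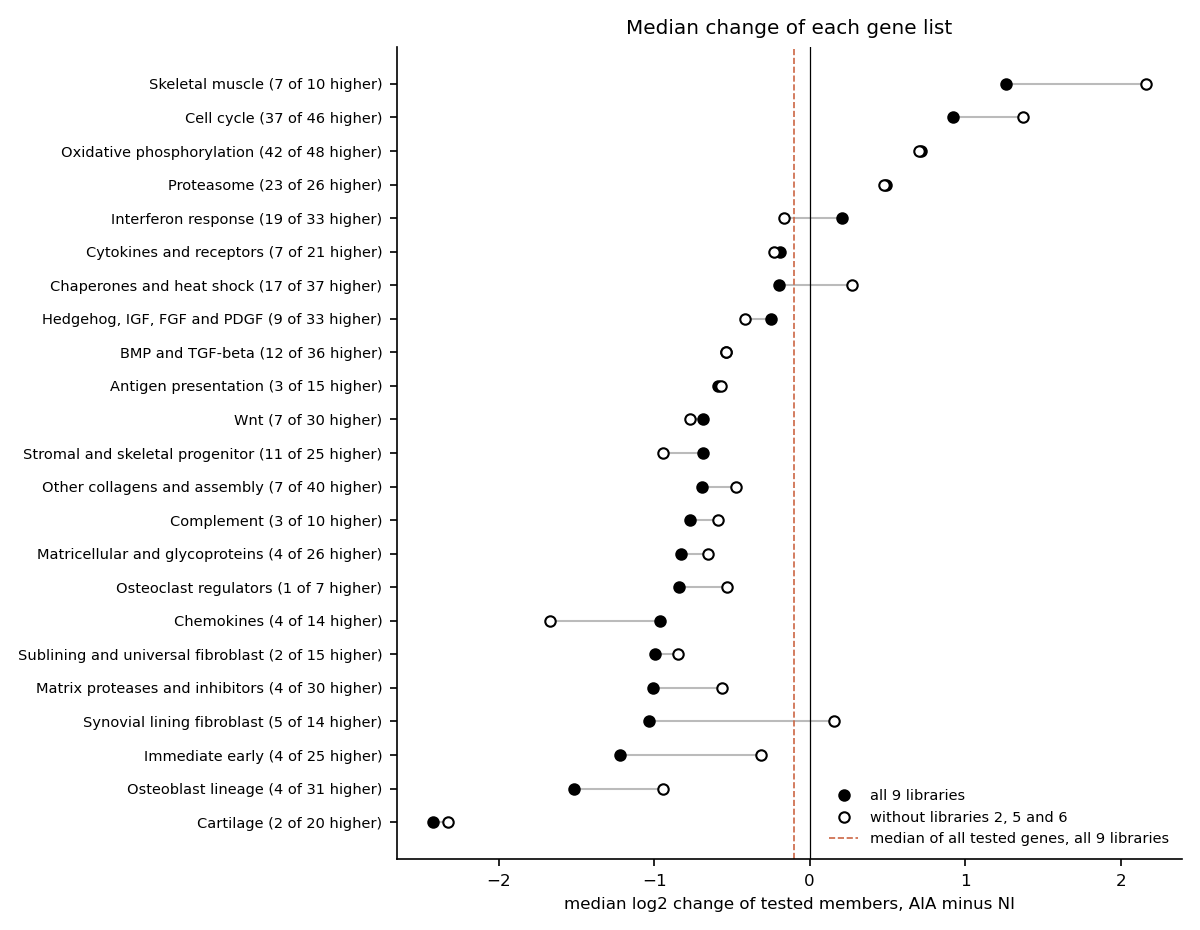
Median log2 change (arthritic minus non-immunized) of the tested members of 23 gene lists, with all 9 libraries (filled) and without libraries 2, 5 and 6 (open); labels give how many members were above 0 with all libraries, and the dashed line is the median of all tested genes, -0.10. The lining, interferon and chaperone lists lie on different sides of 0 in the 2 fits. The glycolysis and hypoxia list and the antioxidant and metal list, which also changed sign, are not plotted.

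Among stress genes, 2 metallothioneins had higher means in arthritis, while immediate early genes were highest in library 2. Of 25 immediate early genes 4 were above 0 (median -1.22), and 10 of 25 without libraries 2, 5 and 6 (median -0.31). Junb, an AP-1 transcription factor, stood at 11815 CPM in library 2 and at 308 to 1279.6 CPM in the other 8, and its log2 change was -2.60 with all libraries and -0.34 without libraries 2, 5 and 6. Fos, its partner, was at 30082 CPM in library 2, with changes of -1.98 and -0.45, and Jund was at 2139 CPM there, with -2.92 and -0.78. The heat-inducible chaperones Hspa1a and Dnajb1 were also highest in library 2, at 4452 and 3009 CPM. Reads of Hspa1a may be shared with its near-identical copy Hspa1b. Of 37 chaperone genes 17 were above 0 (median -0.20), and 21 without those libraries (median 0.27). Creld2, a chaperone of the endoplasmic reticulum, had a log2 change of -1.20 ± 0.44 (SE).

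Of 25 antioxidant and metal genes 16 were above 0 (median 0.09), but 12 of 26 without libraries 2, 5 and 6 (median -0.06). Mt1, a metallothionein that binds zinc and copper, stood at 807, 3385, 1055 and 4965 CPM against 5378, 8096, 7502, 4673 and 4075 CPM. Libraries 1 and 3 were low, and library 4 lay among the arthritic libraries (log2 change 1.22 ± 0.46, SE; edgeR adjusted p = 0.657). Mt2, its neighbour, kept the same order of libraries 1 to 4, with 211, 1074, 381 and 2328 CPM against 2183, 3412, 2811, 2089 and 1577 CPM. Prdx1, a peroxiredoxin, did not overlap, with 279 to 669.9 CPM against 696 to 1461 CPM. Fth1, the ferritin heavy chain, stood at 2140.3 to 3013 CPM against 2465 to 5687 CPM, and Gsr, glutathione reductase, was lower, with a log2 change of -1.08 ± 0.37 (SE). The promoters of Mt1 and Mt2 are shown because these 2 genes varied together across the libraries and carry metal response elements, bound by the zinc sensor Mtf1. The 200 bases before the RefSeq start (GRCm38.p6) were searched on both strands for the core letters TGCACNC or TGCGCNC, which capitals mark. Both lie on the plus strand of chromosome 8, Mt1 at chr8:94178889-94179088 and Mt2 at chr8:94172418-94172617.
Mt1: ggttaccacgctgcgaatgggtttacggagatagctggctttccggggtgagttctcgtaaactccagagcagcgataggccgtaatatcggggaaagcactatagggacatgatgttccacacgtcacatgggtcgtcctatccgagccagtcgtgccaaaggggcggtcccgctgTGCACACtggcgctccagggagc
Mt2: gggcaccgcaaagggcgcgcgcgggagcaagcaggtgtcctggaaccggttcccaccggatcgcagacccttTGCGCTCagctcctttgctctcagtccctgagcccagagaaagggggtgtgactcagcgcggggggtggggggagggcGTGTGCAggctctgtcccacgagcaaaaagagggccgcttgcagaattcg
Mt1 held 1 match and Mt2 held 2, while 18.2% of 32851 windows held at least 1 and 4.00% at least 2. A match describes the letters only.

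Genes of muscle progenitors were present although the labels name no muscle cell. Pax7, a transcription factor of muscle satellite cells, had 102, 176, 231 and 502 CPM in non-immunized and 419.8, 119, 262, 367 and 299 CPM in arthritic libraries. Myf5, its partner in that lineage, was at 63.6 to 167 CPM and at 75.3 to 141 CPM, and these 2 genes were chosen after their values were seen. Of 10 tested muscle genes 7 were above 0 (median 1.26), and 11 of 11 without libraries 2, 5 and 6 (median 2.17). Chrna1, the muscle acetylcholine receptor subunit, stood at 22.3, 75.5, 50.2 and 98.9 CPM against 128, 284, 180.2, 182 and 369.9 CPM without overlap (log2 change 1.89 ± 1.42, SE; edgeR adjusted p = 1). Myog, which drives muscle differentiation, was at 0 in non-immunized libraries 1, 2 and 4 and at 56.3 CPM in library 3, and at 238, 231 and 378 CPM in libraries 7 to 9. Libraries 5 and 6 were at 15.1 and 0 CPM. Myod1 stood at 5.73 to 167 CPM against 53.6 to 305 CPM. Summed muscle markers were 260.4 to 1227 CPM against 818 to 1922 CPM, and libraries 7 to 9, the highest, were also those with the most cell cycle, Prg4 and Inhba counts. The part of muscle cells in the differences described above was not tested.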

How the data were processed

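Whole-number counts per gene were deposited by the authors, per the file headers. Tools named in the submitters' processing notes are HISAT2, StringTie, cutadapt and edgeR (versions not given), with builds mm10 and GRCm38. The sources used here do not give whether reads were counted by strand, and 23 of the 100 genes chosen for a difference overlap another tested gene. A further deposited table, named as normalized and filtered, holds values equal to the raw counts and was not used.

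Spike-in rows were left out of library sizes. Of 47729 genes in the table, 47224 matched GENCODE M21. edgeR 4.0.16 (R 4.3.3; filterByExpr with a minimum count of 10, TMM, robust quasi-likelihood fit, two-sided, Benjamini-Hochberg 0.05) was fitted to all 14 libraries, the 5 CD105_AIA libraries (CD105+ cells of arthritic mice) entering only the estimate of spread (common biological coefficient of variation 1.28). SE is approximate, from the log2 change and the F statistic. Library measures were compared by exact permutation tests. Alternatives were RLE and spike-in scaling, no filter or 10 CPM in 4 libraries, no robust option, the 9 libraries alone, leaving out libraries 2, 5 and 6 or each in turn, DESeq2 1.42.0 and limma 3.58.1 voom; DESeq2 on every gene with a count was added after seeing the data. Scripts were tested on simulated data.

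The groups, the 43 gene lists (919 of 922 genes in the table) and the tests were chosen with earlier results of these data known. Genes named were the 12 per direction with the smallest p among non-overlapping genes with a regular symbol and, in the higher group, a mean CPM of 10 or more, up to 6 non-overlapping DESeq2 calls per direction, up to 5 members per list by p together with members of the osteoblast, lining and protease lists, sort markers, up to 5 genes per direction without a count in 1 group, and genes with 1 outlying library. Some genes this rule selects are not reported here.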

Additional observations from a re-analysis of the deposited data

Results flagged for a closer look

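Each named gene and library measure was examined for a library far from the rest of its group, as the gap to its nearest neighbour over the group's range, on the log2(CPM + 1) scale for genes. Of 254 groups examined 24 were flagged. For normally spread values chance flags about 1 group in 20. Some genes were named because 1 library was outlying, so the count flagged cannot be set against that rate. A gene with a count in only 1 library of its group is always flagged.

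Library 5 was the lowest arthritic library in 9 of the 24. Bone and osteocyte genes made up most of them: Dmp1, Sp7 and Mepe were at 0 CPM, Bglap at 26.2 CPM, Bglap2 at 25.2 CPM and Ibsp at 49.7 CPM. The Wnt antagonist Wif1 was at 0 CPM there, the protease inhibitor Serpine2 at 126 CPM and the ATP synthase subunit Atp5o at 267 CPM. Library 6 was lowest for Rmdn3 (0 CPM) and Il17ra (3.64 CPM), library 7 for Spp1 (17438 CPM) and library 8 for Ergic3 (49.6 CPM). Library 9 stood out by its haemoglobin share of 1.07%.

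In the non-immunized group, library 4 was lowest for Hikeshi (23.2 CPM) and library 2 for Ifitm3 (908 CPM). Library 1 was highest for the ferritin gene Fth1 (3013 CPM) and the endothelial cadherin Cdh5 (4.05 CPM). Library 3 was highest for Jchain, of plasma cells (1452 CPM), and Myog (56.3 CPM), and library 4 for Ptprc (19.6 CPM) and Tnnt1 (1.10 CPM). Library 7 was the sole arthritic library with a count for Ptprc and for the macrophage receptor Csf1r, each at 0.0752 CPM.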

How the results depend on the processing

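All 100 genes chosen for a difference kept their direction in each of 1895 alternative values. They were chosen from these same libraries, largely for a small p or a lack of overlap, so a kept direction is no support. The 100 include Hey1, which is not described above, and leave out Mepe. Of the 23 lists plotted, 20 kept the sign of their median under the 19 alternatives. The plot leaves out described lists that changed sign without libraries 2, 5 and 6. The glycolysis and hypoxia median went from -0.07 to 0.57, and the antioxidant and metal median from 0.09 to -0.06. Of all 37 lists with at least 5 tested members, 12 changed sign under at least 1. No paired analysis was possible because the replicate numbers of the 2 groups (1 to 4 and 5 to 9) are not shared. edgeR's 0 calls became 0 to 2 when each library was left out in turn (2 without library 3), while limma voom called 4 genes, DESeq2 227 and DESeq2 on every gene with a count 343. Genes higher without overlap numbered 86 with RLE factors, 4 with spike-in sizes and 1223 without libraries 2, 5 and 6, and 211 to 423 with each library left out, the most without library 5. Genes lower without overlap numbered 291, 19 and 988, and 212 to 580, the most without library 2. Fewer libraries leave less chance of overlap, and the cause of the other differences was not tested.

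The spike-in share, 3.98 percentage points higher in arthritis, was -4.81 without libraries 2, 5 and 6 and ranged from -3.08 to 12.5 with each left out. Genes detected, -1147 in arthritis, became 372 without the 3 libraries. The lining median was 0.16 without them, 0.15 without them in the CD200 libraries alone and 0.27 by voom. The interferon median was -0.085 with spike-in sizes, -0.16 without the 3 libraries in both fits, and -0.074 to 0.66 with each library left out (-0.074 without library 2). The chaperone median was 0.13 with spike-in sizes, 0.27 and 0.28 without the 3 libraries, 0.31 by voom, and -0.26 to 0.17 with each left out (0.17 without library 2 and 0.02 without library 4). The cause was not tested. Depth limits libraries 5 and 6 most, where 3 counts equal 0.604 and 0.910 CPM.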
